A study of Mus musculus with 13 samples.

Results

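The late postnatal maturation of the wild-type mouse cerebellum was followed by setting postnatal day 30 (P30, n = 3 libraries, numbered 1, 2 and 3) against postnatal day 10 (P10, n = 2 libraries, numbered 5 and 6). These 5 libraries, of 13 in the series, were taken by their labelled age and genotype and held total RNA of whole cerebella of C57BL/6 mice with no mutation or treatment. The series was made to study Sam68, an RNA-binding regulator of splicing encoded by Khdrbs1, and its other libraries, wild type at P1 (n = 2) and Sam68 knockout at P10 (n = 3) and P1 (n = 3), entered the fit for the estimate of the spread and helped to set which genes were expressed enough to be tested. No sex, pooling or animal is given for any library, so the p-values reflect the variation among libraries, which may be technical.

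At the younger age the mouse cerebellum is still being built. Granule cell precursors divide in the external granule layer under Sonic hedgehog released by Purkinje cells, leave the cell cycle, extend axons and migrate inward past Bergmann glia, and then form synapses with mossy fibres, Golgi cells and Purkinje cell dendrites. At the older age this layer has gone, the circuit carries fast signals and its axons are myelinated. Over the same time many neuronal transcripts change isoform, since exons skipped in young neurons become included, among them microexons, very short exons that add a few amino acids to synaptic and cytoskeletal proteins.

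Gene levels were given as cRPKM, read counts scaled to transcript length and library size, and were compared as log2(cRPKM + 1), so that changes of genes with low values are understated. Exon and intron use was given as percent inclusion (PSI) with the reads behind each value. Reads on exon junctions numbered 12.64, 10.55 and 11.54 M in the P30 libraries and 11.74 and 13.66 M in the P10 libraries. The expression table was less even. Worked out from the steps between its values, the reads behind it were 54.3%, 100% and 74.4% of those of P30 library 2 in P30 libraries 1, 2 and 3, and 8.7% and 59.6% in P10 libraries 5 and 6. Of 9050 genes averaging 50 junction reads or more, 116, 64 and 83 were listed at 0 cRPKM in the P30 libraries and 361 and 30 in the P10 libraries. P10 library 5 was therefore the shallowest of the 5 in cRPKM, though not in junction reads, and results that end without it or without P10 library 6 are given beside each group. Log2 expression correlated across genes at 0.971 to 0.977 among the P30 libraries, 0.908 between the P10 libraries and 0.823 to 0.854 between the ages (genes are not independent replicates).

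Of 14063 genes tested, 2074 (14.7%) changed at a Benjamini-Hochberg adjusted p below 0.05 in limma. 706 (5.02%) were higher at P30 and 1368 (9.73%) were lower, the shares of all genes beside which the gene lists below are to be read. For all 2074 the P30 and P10 libraries did not overlap. With so few libraries such separation nearly follows from a call. Its share over all genes tested was not counted, so here and below it adds no support to a call. A change of at least 2-fold was seen in 518 of the rises and 953 of the falls, and one of at least 8-fold in 24 rises and 93 falls. The median gene had a log2 change of -0.13. After the libraries were rescaled so that the median gene had a log2 change of 0.01, the calls were split into 990 higher and 1016 lower, 49.4% higher against 34.0% before, so the excess of falls depends on the scaling.

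Genes of dividing cells fell almost as a whole. Of 40 tested genes of the cell cycle and DNA replication, 0 rose and 38 fell, with a median log2 change of -2.95. Mki67, the marker of cycling cells, had 0.28, 0.06 and 0.12 cRPKM at P30, against 39.3 and 67.7 cRPKM at P10 (log2 change -5.52, SE 0.34, adjusted p = 2.04e-06). Top2a, the topoisomerase that untangles replicated chromosomes, had 0.26, 0.14 and 0.25 cRPKM at P30, against 40.4 and 48.6 cRPKM at P10 (log2 change -5.22, SE 0.30, adjusted p = 1.2e-06). Each P30 library lay near 0 for both genes. Ube2c, the ubiquitin-conjugating enzyme of the anaphase-promoting complex, had 0, 0.6 and 0.4 cRPKM at P30, against 48.4 and 109 cRPKM at P10 (log2 change -5.82, SE 0.38, adjusted p = 2.34e-06). Ccnd2, the D-type cyclin of granule cell precursors, had 0.8, 2.34 and 2.74 cRPKM at P30, against 63.9 and 85.8 cRPKM at P10 (log2 change -4.73, SE 0.37, adjusted p = 8.06e-06), and the cyclin genes Ccnb1 and Ccna2 fell as well (log2 change -4.68, adjusted p = 3.85e-06, and log2 change -4.64, adjusted p = 9.58e-06). All 28 cell cycle genes with enough junction reads also fell when levels were taken from those reads, and 30 to 35 fell with any 1 of the 5 libraries left out. In whole-tissue RNA, fewer cells of a type and less RNA per cell cannot be told apart, here or in the groups below.

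Genes of granule cell precursors and of Sonic hedgehog signalling fell in part, with 0 of 25 higher, 12 lower and a median log2 change of -1.19. Atoh1, the transcription factor that defines the precursors, had 0.22, 0 and 0 cRPKM at P30, against 12.5 and 6.63 cRPKM at P10 (log2 change -3.25, SE 0.47, adjusted p = 0.000642). Mycn, a growth regulator downstream of Sonic hedgehog, had 0.86, 1.31 and 1.51 cRPKM at P30, against 14 and 24.5 cRPKM at P10 (log2 change -3.15, adjusted p = 0.000109). Neither exceeded 2 cRPKM in any P30 library. Sfrp1, a secreted Wnt antagonist, fell (log2 change -3.75, adjusted p = 4e-06). So did Insm1, a zinc-finger factor of newborn neurons (log2 change -4.54, adjusted p = 2.48e-05), and Barhl1, a homeobox factor of the granule lineage (log2 change -3.07, adjusted p = 2.55e-05). The number of falls was 7 to 11 with 1 library left out, the fewest without P10 library 6.

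The genes of postmitotic, migrating granule cells fell almost as a block, with 0 of 22 higher and 18 lower (median -1.63). Dcx, the microtubule protein of migrating neurons, had 0.6, 1.83 and 0.92 cRPKM at P30, against 103 and 122 cRPKM at P10 (log2 change -5.78, SE 0.27, adjusted p = 2.71e-07). Nhlh1, a helix-loop-helix factor of newly born granule neurons, had 0.19, 0.2 and 0 cRPKM at P30, against 39.7 and 54.1 cRPKM at P10 (log2 change -5.39, SE 0.33, adjusted p = 1.87e-06). The P30 values of both were under 2 cRPKM. Its relative Nhlh2 fell (log2 change -2.98, adjusted p = 2.95e-06), as did Dpysl3, a growth cone protein (log2 change -4.18, adjusted p = 1.15e-06). Tubb2b, a tubulin isotype of young neurons (log2 change -3.43, adjusted p = 8.06e-06), and Sema6a, a semaphorin of migrating granule cells (log2 change -2.42, adjusted p = 1.37e-05), fell too. Stmn2, a microtubule-destabilizing protein, had 303, 357 and 369 cRPKM at P30, against 634 and 577 cRPKM at P10 (log2 change -0.82, adjusted p = 0.00924). Stmn2 was not called without P10 library 5 (adjusted p = 0.0763). Of the genes with the largest falls in the whole table, Igfbpl1, Basp1 and Cd24a are in none of the gene lists used here. Basp1, a growth cone membrane protein, had 6.01, 5.71 and 6.41 cRPKM at P30, against 299.8 and 214 cRPKM at P10 (log2 change -5.17, SE 0.17, adjusted p = 1.26e-08). Cd24a, a surface glycoprotein of immature neurons, had 5.11, 4.71 and 5.78 cRPKM at P30, against 139 and 185 cRPKM at P10 (log2 change -4.71, adjusted p = 1.26e-08). Igfbpl1, a member of the insulin-like growth factor binding protein family, had 0, 0.09 and 0.35 cRPKM at P30, against 68.3 and 68.7 cRPKM at P10 (log2 change -5.93, adjusted p = 9.89e-08). In every one of these genes the P30 libraries were at least 10 times lower than the P10 libraries. Mfap4, a microfibril-associated glycoprotein, also had 1.65, 0.9 and 1.21 cRPKM at P30, against 76 and 145 cRPKM at P10 (log2 change -5.57, adjusted p = 2.11e-06).

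Of 29 tested genes of the mature granule cell list, which shares Car8 and Ppp1r17 with the Purkinje cell list, 18 rose and 2 fell (median 1.32). Cbln3, a granule cell partner of the synaptic organizer Cbln1, had 379, 365 and 363 cRPKM at P30, against 46.4 and 34.1 cRPKM at P10 (log2 change 3.18, SE 0.31, adjusted p = 4.03e-05). Chn2, a Rac-directed GTPase-activating protein, had 399.7, 353 and 386 cRPKM at P30, against 91.7 and 68.3 cRPKM at P10 (log2 change 2.24, adjusted p = 0.000118). Calb2, the calcium buffer calretinin, had 307, 328 and 396 cRPKM at P30, against 63.4 and 49 cRPKM at P10 (log2 change 2.60, SE 0.42, adjusted p = 0.00134). In all 3 genes the lowest P30 library exceeded the higher P10 library by more than 2-fold. Nab2, a corepressor of Egr factors, had 30.4, 27.5 and 21.7 cRPKM at P30, against 1.12 and 2.44 cRPKM at P10 (log2 change 3.34, adjusted p = 0.00248). The falls were Gprin3 and Kcnk9, a leak potassium channel, with log2 changes of -2.02 and -1.13. Gprin3 was not called without P30 library 1, P30 library 3 or P10 library 5 (adjusted p = 0.0516 to 0.127). Kcnk9 was not called without P30 library 1, P30 library 3, P10 library 5 or P10 library 6 (adjusted p = 0.085 to 0.121). The rises numbered 8 to 14 with 1 library left out and were fewest without P10 library 6.

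Purkinje cell genes moved less, with 12 of 32 higher, 1 lower and a median of 0.62. Aldoc, the glycolytic enzyme zebrin II of Purkinje cell stripes that astrocytes also make, had 1067, 725 and 991 cRPKM at P30, against 238 and 153 cRPKM at P10 (log2 change 2.25, SE 0.38, adjusted p = 0.00178). Plcb4, a phospholipase of the metabotropic glutamate pathway, rose (log2 change 1.18, adjusted p = 0.00196). Rgs8, a regulator of G protein signalling, rose too (log2 change 1.42, adjusted p = 0.0022). Icmt, a methyltransferase of prenylated proteins (log2 change 1.81, adjusted p = 0.000136), and Atp2a3, a calcium pump of the endoplasmic reticulum (log2 change 1.84, adjusted p = 0.00475), were also higher. Ebf1, a transcription factor, was the 1 that fell (-0.87 on the log2 scale). Atp2a3 was not called without P10 library 6 (adjusted p = 0.07). Ebf1 was not called without P30 library 2, P30 library 3, P10 library 5 or P10 library 6 (adjusted p = 0.0644 to 0.127).

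Of 19 inhibitory interneuron genes 7 rose and 1 fell (median 0.88). Gad2, a GABA-synthesizing enzyme, had 32.5, 32.1 and 29.8 cRPKM at P30, against 17.7 and 15 cRPKM at P10 (log2 change 0.91, adjusted p = 0.0299). Pvalb, the calcium buffer parvalbumin of Purkinje cells and interneurons, had 271, 252 and 280.5 cRPKM at P30, against 91.2 and 71.5 cRPKM at P10 (log2 change 1.72, adjusted p = 0.015). In both the lowest P30 library was above the higher P10 library. Prkcd, a protein kinase, rose as well (log2 change 1.71, adjusted p = 0.000738). Pvalb was not called without P30 library 3, P10 library 5 or P10 library 6 (adjusted p = 0.0512 to 0.121). Gad2 was not called without any 1 of the 5 libraries (adjusted p = 0.0732 to 0.165). With 1 library left out, 4 to 10 Purkinje cell genes and 1 to 5 interneuron genes rose, the fewest in each without P10 library 6.

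**Figure D1:**
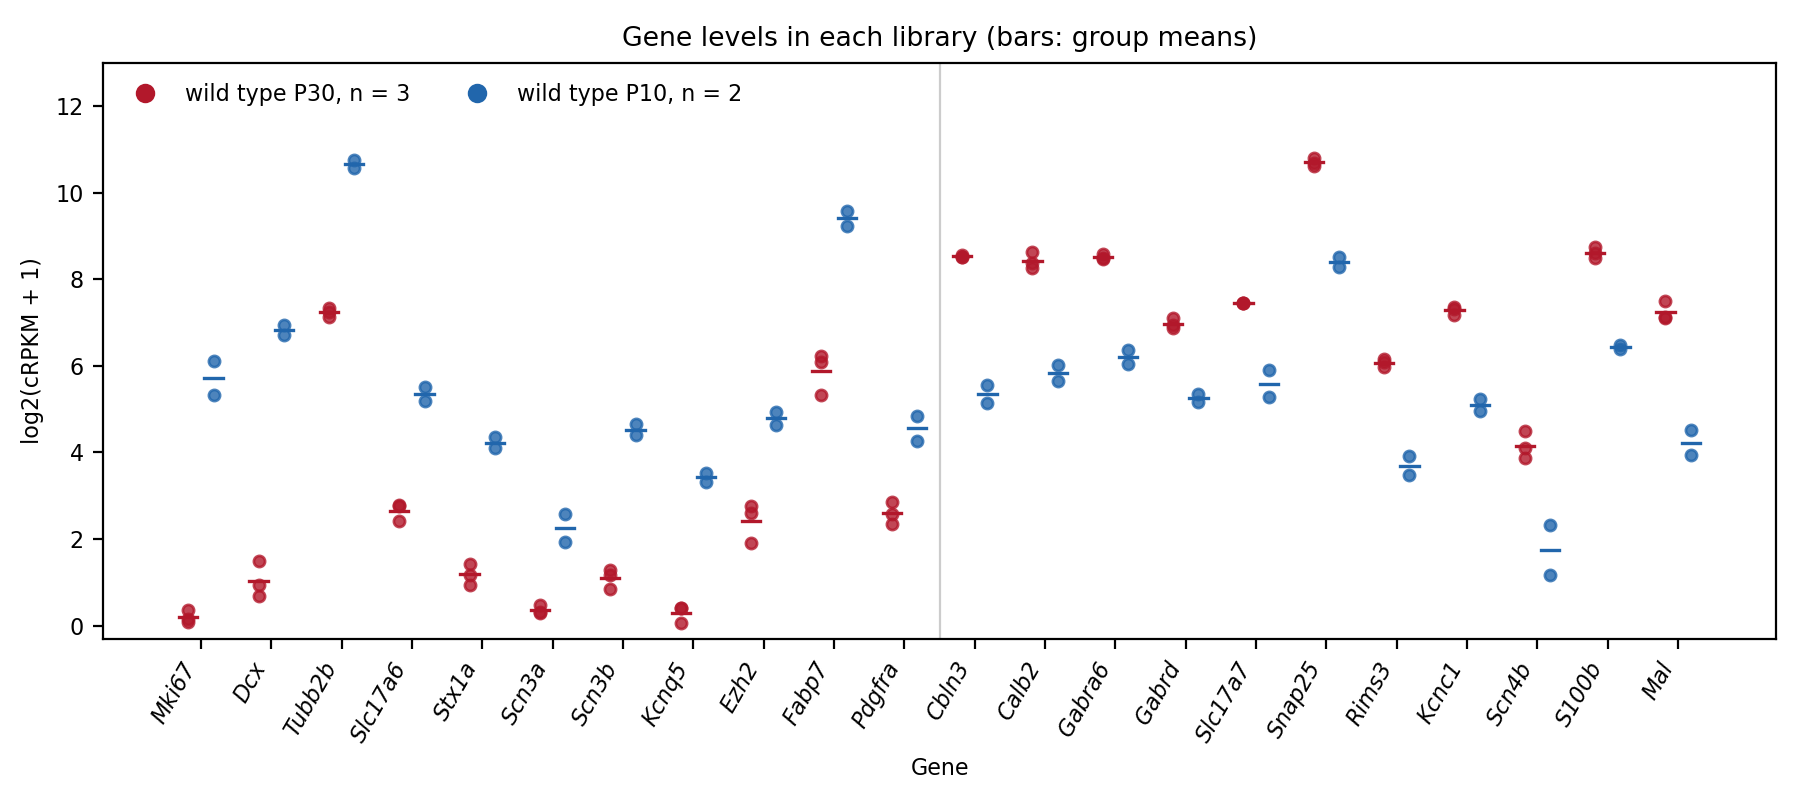
Level of 22 genes as log2(cRPKM + 1) in each library, wild-type P30 (n = 3) left of wild-type P10 (n = 2), with points for libraries and bars for group means. The 11 genes left of the line fell at P30 and the 11 right of it rose, and in none do the libraries of the ages overlap.

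Of 30 genes of Bergmann glia and astrocytes, 11 rose and 5 fell (median 0.50). S100b, a glial calcium-binding protein, had 386, 357 and 426 cRPKM at P30, against 82.6 and 88.5 cRPKM at P10 (log2 change 2.17, SE 0.22, adjusted p = 5.05e-05). Fabp7, the fatty acid binding protein of radial and young Bergmann glia, had 39.4, 73.5 and 66.7 cRPKM at P30, against 602 and 758 cRPKM at P10 (log2 change -3.52, SE 0.26, adjusted p = 4.67e-06). Tnc, the matrix glycoprotein tenascin C (log2 change -2.43, adjusted p = 2.8e-05), and Aldh1l1, a folate enzyme of astrocytes (log2 change -1.29, adjusted p = 0.00103), also fell. The other falls were Gfap, the astrocyte intermediate filament (-2.16 on the log2 scale), and Aqp4, the water channel of astrocyte endfeet (-1.31). Gfap was not called without P10 library 6 (adjusted p = 0.0825). Aqp4 was not called without any 1 of the 5 libraries (adjusted p = 0.0669 to 0.182). Gria1 (log2 change 1.16, adjusted p = 0.000456) and Gria4 (log2 change 0.97, adjusted p = 0.0012), the AMPA receptor subunits that Bergmann glia use, rose. Slc1a2, an astrocytic glutamate transporter, had 112, 95.1 and 101 cRPKM at P30, against 60.3 and 50.5 cRPKM at P10 (log2 change 0.88, adjusted p = 0.0311). It was not called without any 1 of the 5 libraries (adjusted p = 0.0625 to 0.186), nor from junction reads. In this list 6 to 10 genes rose and 3 to 4 fell with 1 library left out.

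Of 31 myelin genes, 14 rose and 1 fell (median 1.13), whereas of 18 genes of oligodendrocyte progenitors and newly formed oligodendrocytes 1 rose and 5 fell (median -0.64). Mal, a proteolipid of compact myelin, had 136, 139.5 and 179 cRPKM at P30, against 21.7 and 14.3 cRPKM at P10 (log2 change 3.02, SE 0.50, adjusted p = 0.00153). Ermn, an actin-binding protein of mature oligodendrocytes, had 36.6, 43.3 and 46.2 cRPKM at P30, against 6.35 and 4.38 cRPKM at P10 (log2 change 2.77, SE 0.40, adjusted p = 0.000661). Both were several times higher in every P30 library. Trf, the iron carrier transferrin that oligodendrocytes make, had 58.5, 66 and 72.4 cRPKM at P30, against 0 and 4.1 cRPKM at P10 (log2 change 4.88, adjusted p = 0.0118), and was not called without P10 library 5 (adjusted p = 0.151). Mobp, a basic protein of myelin, had 129, 148 and 161 cRPKM at P30, against 44.8 and 25.1 cRPKM at P10 (log2 change 2.08, adjusted p = 0.00368), and was not called without P10 library 6 (adjusted p = 0.0602). Ndrg1 (log2 change 2.27, adjusted p = 0.000146) and Sept4, a septin of the myelin sheath and of Bergmann glia (log2 change 1.28, adjusted p = 0.00139), rose too. Cntn2, an axonal contactin, fell by 0.77 on the log2 scale. Its call ended without P30 library 1, P30 library 3 or P10 library 5 (adjusted p = 0.0915 to 0.257). Pdgfra, the growth factor receptor of the progenitors, had 6.23, 4.06 and 5.01 cRPKM at P30, against 18.2 and 27.8 cRPKM at P10 (log2 change -1.96, SE 0.25, adjusted p = 0.000306). The large proteoglycan Vcan fell (log2 change -2.17, adjusted p = 0.000783). The kinase Fyn (log2 change -0.68, adjusted p = 0.00735) and Gpr17, a receptor of committed progenitors (log2 change -1.95, adjusted p = 0.00778), fell too, and the zinc transporter Tmem163 rose (log2 change 1.95, adjusted p = 0.00598). Fyn was not called without P10 library 5 (adjusted p = 0.0518). Gpr17 was not called without P10 library 5 (adjusted p = 0.104), and Tmem163 not without P10 library 6 (adjusted p = 0.062). Myelin rises numbered 7 to 10 with 1 library left out, the fewest without P10 library 6.

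Markers of cells that a dissection can carry along or that lie beside neurons were read with the same test. The 14 tested choroid plexus genes had 0 calls, and their summed level was 60.6, 511 and 1560.0 cRPKM at P30 and 372 and 65.7 cRPKM at P10, so that it differed several-fold within each age and the ages overlapped. Ttr, its defining marker, had 2.31, 321 and 1079 cRPKM at P30, against 268 and 0.7 cRPKM at P10. The 5 red blood cell genes tested and the 4 sex-linked genes also had 0 calls. At an unadjusted p below 0.05 in limma, 0 choroid plexus, 2 red blood cell and 0 sex-linked genes differed. From junction reads, 1 of 8 choroid plexus genes rose and 1 fell, and 0 of the 4 sex-linked genes and of 1 red blood cell gene were called. Without P30 library 1, the lowest P30 library in choroid plexus level, 3 choroid plexus genes rose in cRPKM. Without P30 library 2 or P30 library 3, 0 rose. The 0 calls of the choroid plexus list thus depend on P30 library 1. Of 22 microglia and macrophage genes 1 fell, Cd68 (log2 change -1.69, adjusted p = 0.00458), against 9.73% of all genes tested. Levels from junction reads gave 1 rise and 6 falls among 13 genes of this list, with a median of -0.68, so its count depends on the table used. 

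Of 22 endothelial and pericyte genes 3 rose and 3 fell, against 5.02% and 9.73% of all genes tested. Levels from junction reads gave 5 rises and 7 falls among 16 genes of this list. Slc2a1, the glucose transporter of brain vessels (log2 change 1.93, adjusted p = 0.00491), Ly6a (log2 change 3.43, adjusted p = 0.0142) and the transporter Slco1a4 (1.57 on the log2 scale) rose. The basement membrane collagens Col4a1 (log2 change -1.49, adjusted p = 0.00271) and Col4a2 (log2 change -1.22, adjusted p = 0.0111) and the factor Ets1 (log2 change -1.51, adjusted p = 0.0179) fell. Ly6a was not called without P10 library 5 (adjusted p = 0.171), and Col4a2 not without P10 library 5 (adjusted p = 0.121). Ets1 was not called without P30 library 1, P30 library 3, P10 library 5 or P10 library 6 (adjusted p = 0.064 to 0.111). Slco1a4 was not called without P30 library 1, P30 library 2, P10 library 5 or P10 library 6 (adjusted p = 0.0775 to 0.13). Of 18 genes of meninges and fibroblasts the collagens Col3a1 (log2 change -2.62, adjusted p = 1.97e-05), Col1a2 (log2 change -1.33, adjusted p = 0.00738) and Col1a1 (log2 change -1.73, adjusted p = 0.00869) fell. Levels from junction reads gave 0 rises and 8 falls among 11 genes of the meningeal list, with a median of -1.08. Col1a2 was not called without P10 library 5 (adjusted p = 0.0854), and Col1a1 not without P10 library 5 (adjusted p = 0.0998). The summed level of the meningeal list was 185, 99.6 and 118 cRPKM at P30 and 196 and 233 cRPKM at P10, and its part in the changes of matrix genes was not tested. Of 13 midbrain and hindbrain genes Th, the rate-limiting enzyme of catecholamine synthesis, rose (log2 change 2.00, adjusted p = 0.00774). Th was not called without P10 library 5 (adjusted p = 0.0581). Of 17 immediate early genes Bdnf (log2 change 1.57, adjusted p = 0.034) and Jun (log2 change 0.90, adjusted p = 0.0429) rose. Bdnf was not called without P30 library 2, P30 library 3, P10 library 5 or P10 library 6 (adjusted p = 0.0581 to 0.215). Jun was not called without any 1 of the 5 libraries (adjusted p = 0.0923 to 0.178).

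**Figure D2:**
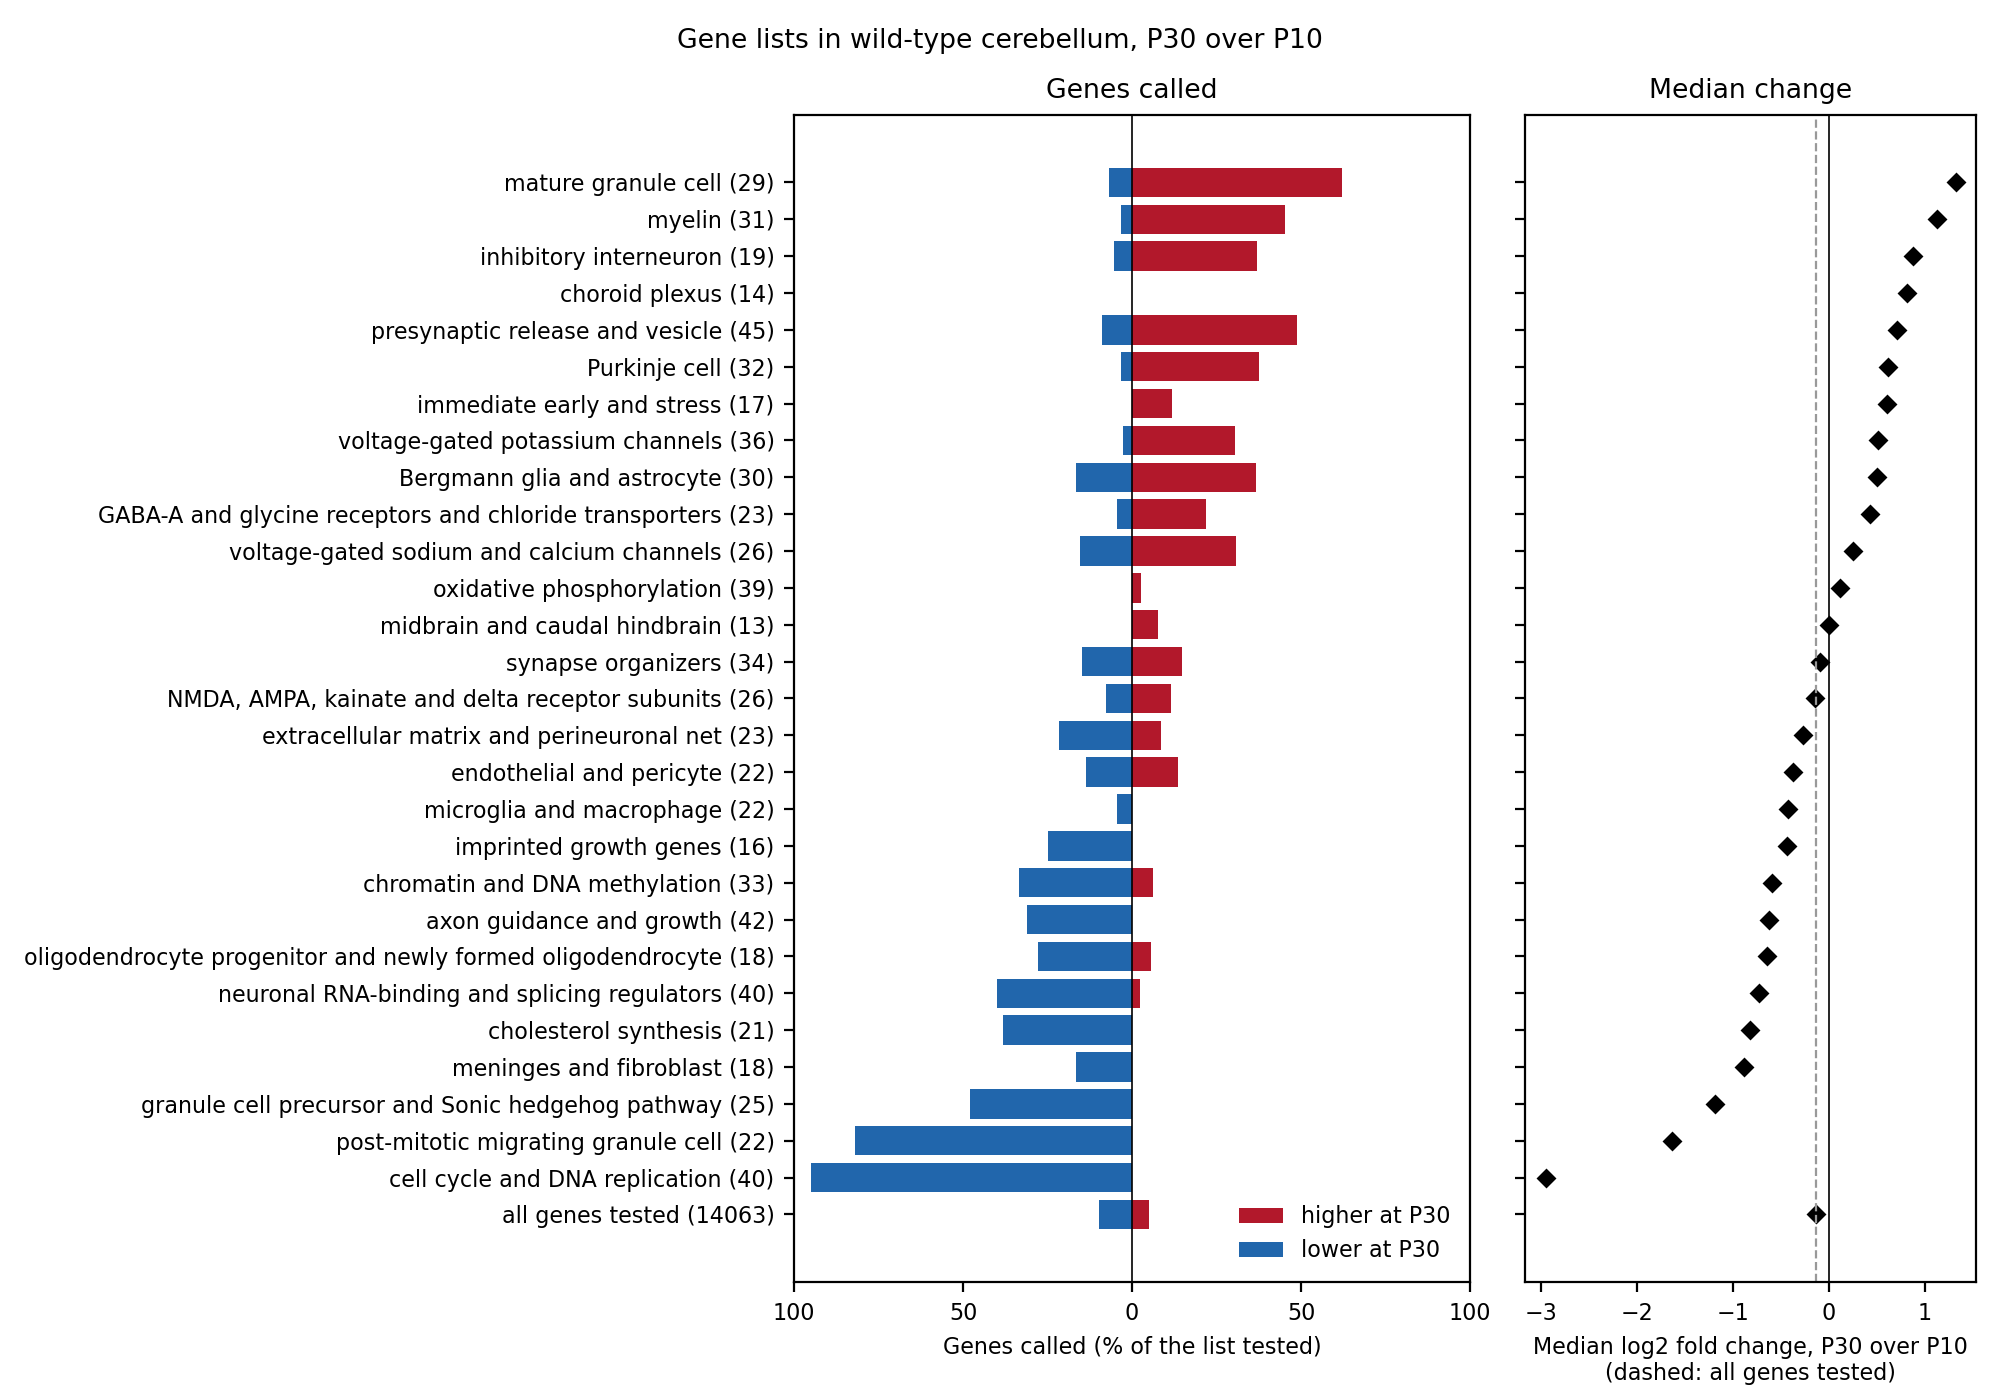
Share of each gene list called (left, percent of genes tested, higher at P30 to the right and lower to the left) and its median log2 fold change of P30 over P10 (right), with all genes tested in the bottom row. The cell cycle list, with 38 of 40 genes lower and a median of -2.95, and the migrating granule cell list lie farthest to the left, and the mature granule cell list, with a median of 1.32, farthest to the right.

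Among 26 NMDA, AMPA, kainate and delta receptor genes 3 rose and 2 fell, with a median of -0.14. Of all genes tested, 5.02% rose and 9.73% fell, and the list was not tested against these shares. Rescaling gave 6 rises and 2 falls with a median of 0.01. Levels from junction reads gave 6 rises and 8 falls among 22 of these genes with a median of -0.37, so the balance of the list depends on the scaling and on the table used. Grin2b, the NMDA receptor subunit of young neurons, had 0.61, 0.33 and 0.27 cRPKM at P30, against 7.62 and 5.36 cRPKM at P10 (log2 change -2.41, SE 0.65, adjusted p = 0.0271). Grin2c, the subunit of mature granule cells, had 60.2, 95.3 and 79.7 cRPKM at P30, against 18.7 and 7.95 cRPKM at P10 (log2 change 2.56, SE 0.75, adjusted p = 0.0395). The libraries of the ages did not overlap for either gene, but the call of Grin2b ended without any 1 of the 5 libraries (adjusted p = 0.0638 to 0.165). That of Grin2c ended without any 1 of the 5 libraries (adjusted p = 0.0771 to 0.256), and both ended with a pseudocount of 0.1. The other calls were Gria1 and Gria4, given above, and Cacng4, an AMPA receptor auxiliary subunit (log2 change -1.08, adjusted p = 0.00651), which was lost without P10 library 6 (adjusted p = 0.078).

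Of 23 GABA-A and glycine receptor genes and chloride transporters, 5 rose and 1 fell (median 0.43). Gabra6, the alpha subunit made by mature granule cells, had 353, 380.2 and 360.2 cRPKM at P30, against 81.7 and 65.1 cRPKM at P10 (log2 change 2.30, SE 0.48, adjusted p = 0.00725), and was not called without P10 library 6 (adjusted p = 0.0733). Gabrd, the subunit of its extrasynaptic receptors, had 117, 121 and 137 cRPKM at P30, against 34.7 and 39.8 cRPKM at P10 (log2 change 1.72, adjusted p = 0.000306). Gabrb2 rose too (0.92 on the log2 scale), but was not called without any 1 of the 5 libraries (adjusted p = 0.0651 to 0.186). Glra2, the glycine receptor alpha subunit of the fetal brain, had 1.02, 1.74 and 1.81 cRPKM at P30, against 21 and 7.28 cRPKM at P10 (log2 change -2.43, adjusted p = 0.00139). The alpha subunits of young neurons were not called. Gabra2 had 15.3, 8.07 and 14.4 cRPKM at P30, against 20.8 and 16.4 cRPKM at P10 (adjusted p = 0.38). Gabra3 had 4.49, 3.45 and 3.64 cRPKM at P30, against 6.25 and 10.8 cRPKM at P10 (adjusted p = 0.0849). The transporters that set neuronal chloride were not called either. Slc12a2, which loads chloride, had 25.3, 25.9 and 24.8 cRPKM at P30, against 12.2 and 16.6 cRPKM at P10 (log2 change 0.79, adjusted p = 0.126). Slc12a5, which extrudes it, had 89.5, 81.7 and 80 cRPKM at P30, against 65.7 and 24.2 cRPKM at P10 (log2 change 1.05, adjusted p = 0.0536).

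Among 36 voltage-gated potassium channel genes 11 rose and 1 fell (median 0.51). Kcnc1, a channel that repolarizes fast-spiking cells, had 158, 164 and 142 cRPKM at P30, against 36.9 and 29.8 cRPKM at P10 (log2 change 2.19, SE 0.42, adjusted p = 0.00404). Kcng4, a silent modifier subunit (log2 change 2.51, adjusted p = 0.00032), and Kcnd2, the A-type channel of granule cells (log2 change 1.29, adjusted p = 0.000163), rose too. Kcnq5, an M-type channel, was the 1 that fell, with 0.33, 0.32 and 0.05 cRPKM at P30, against 10.6 and 8.93 cRPKM at P10 (log2 change -3.13, SE 0.38, adjusted p = 0.000191). Every P30 library was above every P10 library in the first 3 genes and below it in Kcnq5. Kcnc1 was not called without P10 library 6 (adjusted p = 0.0509), and the number of rises was 4 to 8 with 1 library left out, the fewest without P10 library 6.

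Of 26 voltage-gated sodium and calcium channel genes 8 rose and 4 fell (median 0.25). Scn3a, the alpha subunit of the embryonic and newborn brain, had 0.25, 0.38 and 0.23 cRPKM at P30, against 2.79 and 4.92 cRPKM at P10 (log2 change -1.88, SE 0.35, adjusted p = 0.00366). The beta subunit Scn3b had 0.81, 1.42 and 1.25 cRPKM at P30, against 24 and 20.2 cRPKM at P10 (log2 change -3.43, SE 0.24, adjusted p = 3.18e-06). Both were lower in every P30 library. Scn2a1, an axonal alpha subunit, had 79.6, 94.2 and 81.2 cRPKM at P30, against 28.9 and 22.7 cRPKM at P10 (log2 change 1.69, adjusted p = 0.00124). Scn4b, the beta subunit of resurgent sodium current in Purkinje cells, had 21.6, 13.7 and 16.1 cRPKM at P30, against 4.04 and 1.26 cRPKM at P10 (log2 change 2.40, adjusted p = 0.00481). The call of Scn4b ended without P10 library 6 (adjusted p = 0.0655) and with a pseudocount of 0.1. Hcn2, a pacemaker channel (log2 change 1.95, adjusted p = 0.00037), and Cacnb4, the main calcium channel beta subunit of the cerebellum (log2 change 1.28, adjusted p = 0.00366), rose. Cacna1b and Cacna2d1, further calcium channel subunits, fell (-0.92 and -0.90 on the log2 scale). Cacna1b was not called without P30 library 1, P30 library 3 or P10 library 5 (adjusted p = 0.0651 to 0.151). Cacna2d1 was not called without P30 library 1, P30 library 3, P10 library 5 or P10 library 6 (adjusted p = 0.0866 to 0.237). Scn8a, the alpha subunit of mature nodes and axon initial segments, had 32.1, 38.2 and 33.1 cRPKM at P30, against 33.1 and 26.7 cRPKM at P10 (log2 change 0.20, adjusted p = 0.661), and was not called. Levels from junction reads gave 7 rises and 8 falls among 20 of these genes, with a median of -0.36 in place of 0.25, so the balance of the list depends on the table used.

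Genes of presynaptic release and synaptic vesicles differed in part, with 22 of 45 higher, 4 lower and a median of 0.71. Snap25, the SNARE protein of vesicle fusion, had 1647, 1562 and 1788 cRPKM at P30, against 365 and 309 cRPKM at P10 (log2 change 2.31, SE 0.31, adjusted p = 0.000419). Rims3, an active zone protein (log2 change 2.39, adjusted p = 1.71e-05), and Dnm1, the dynamin of vesicle retrieval (log2 change 1.92, adjusted p = 0.000548), rose. So did Syt2, a fast calcium sensor (log2 change 1.69, adjusted p = 0.00203), and Vamp1, a vesicle SNARE (log2 change 1.76, adjusted p = 0.019). The vesicular glutamate transporters moved in opposite directions. Slc17a7, the transporter of mature parallel fibres, had 174, 174 and 174 cRPKM at P30, against 58.6 and 37.9 cRPKM at P10 (log2 change 1.86, SE 0.45, adjusted p = 0.0164). Slc17a6, the transporter of younger granule cells and of climbing fibres, had 5.91, 4.3 and 5.78 cRPKM at P30, against 35.7 and 44.7 cRPKM at P10 (log2 change -2.70, SE 0.24, adjusted p = 1.84e-05). The other falls were Stx1a, a plasma membrane SNARE (log2 change -3.04, adjusted p = 2.75e-05), the synapsin Syn3 (-1.77 on the log2 scale) and the active zone protein Erc2 (-1.08). Erc2 was not called without P10 library 6 (adjusted p = 0.0998). Syt4, a synaptotagmin of young neurons, was not called (log2 change 0.18, adjusted p = 0.596). Slc17a7 was not called without P30 library 1, P30 library 3 or P10 library 6 (adjusted p = 0.0504 to 0.144). Vamp1 was not called without P30 library 1, P30 library 2, P30 library 3 or P10 library 6 (adjusted p = 0.0532 to 0.194). In all, 9 to 18 genes of the list rose with 1 library left out, the fewest without P10 library 6.

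Genes of axon growth and guidance fell in part, with 0 of 42 higher and 13 lower (median -0.62). Levels from junction reads gave 4 rises and 18 falls among 38 of these genes, with a median of -0.58. Marcksl1, an actin-regulating substrate of protein kinase C, had 9.84, 15.4 and 19.9 cRPKM at P30, against 183 and 184 cRPKM at P10 (log2 change -3.58, SE 0.24, adjusted p = 2.64e-06). Dpysl5 (log2 change -2.54, adjusted p = 1.04e-05) and Crmp1 (log2 change -1.40, adjusted p = 0.000107), collapsin response mediators of growth cones, and Robo2, a Slit receptor (log2 change -1.84, adjusted p = 0.000106), were among the falls. Synapse organizers were split, with 5 rises and 5 falls among 34 entries and a median of -0.09 that became 0.03 after rescaling. Of all genes tested, 5.02% rose and 9.73% fell. Nrxn3, Nrxn2, Cbln1, Slitrk1 and Slitrk4 rose, with log2 changes of 1.07, 0.81, 0.93, 1.68 and 1.23. Without P10 library 6, 0 of these 5 were called, and 2 to 3 were without any other library. The receptor phosphatase Ptprs (log2 change -1.57, adjusted p = 4.78e-05) and the latrophilin Lphn2 (log2 change -1.14, adjusted p = 0.00218) fell. So did the phosphatase Ptprf (log2 change -1.17, adjusted p = 0.0057) and Slitrk5 (log2 change -1.17, adjusted p = 0.0103). C1ql1, the organizer of climbing fibre synapses, fell by 1.78 on the log2 scale. Ptprf was not called without P10 library 5 (adjusted p = 0.0672) and Slitrk5 not without P10 library 5 (adjusted p = 0.104). C1ql1 was not called without P30 library 1, P10 library 5 or P10 library 6 (adjusted p = 0.0529 to 0.136). Of 23 genes of the extracellular matrix and perineuronal nets 2 rose and 5 fell (median -0.27), to be read beside the same shares of all genes. Hapln4, a link protein of perineuronal nets, had 30.6, 27.3 and 26.4 cRPKM at P30, against 8 and 6.27 cRPKM at P10 (log2 change 1.85, adjusted p = 0.00243). Hapln2, a link protein of nodes of Ranvier, rose as well (log2 change 2.79, adjusted p = 0.00886), but was not called without P10 library 6 (adjusted p = 0.108). Ncan, the proteoglycan neurocan of the young brain, had 3.84, 5.55 and 4.86 cRPKM at P30, against 56.1 and 44.4 cRPKM at P10 (log2 change -3.16, SE 0.28, adjusted p = 1.89e-05), and Tnc, Vcan and Col4a1 fell with it. The protease Mmp15 fell by 1.24 on the log2 scale, and was not called without P10 library 5 (adjusted p = 0.0763).

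Among 40 neuronal RNA-binding proteins and splicing regulators 1 rose and 16 fell (median -0.73). Ptbp1, the repressor of neuronal exons in dividing cells, had 17.2, 21.3 and 16.6 cRPKM at P30, against 60.9 and 69.9 cRPKM at P10 (log2 change -1.78, SE 0.19, adjusted p = 6.45e-05). Ptbp2, its counterpart in young neurons, had 32.1, 44.9 and 35.7 cRPKM at P30, against 61.3 and 77.1 cRPKM at P10 (log2 change -0.87, adjusted p = 0.0432). Its call ended without P30 library 1, P30 library 3, P10 library 5 or P10 library 6 (adjusted p = 0.0926 to 0.241) and after rescaling. Hnrnpa1, an abundant repressor (log2 change -1.87, adjusted p = 1.84e-05), Elavl2, a neuronal AU-rich element binder (log2 change -2.02, adjusted p = 5.43e-05), and Celf2 and Celf3 (-1.56 and -1.51 on the log2 scale) fell. Rbfox1, a splicing factor of mature neurons, rose (1.41), but was not called without P10 library 6 (adjusted p = 0.136). Khdrbs1, the gene of Sam68, had 31.4, 29.5 and 36.8 cRPKM at P30, against 61.2 and 56.2 cRPKM at P10 (log2 change -0.84, SE 0.31, adjusted p = 0.102) and was not called. Every P30 library was below every P10 library. The spread of this gene was estimated with the knockout libraries included, in which it is deleted (2.06, 1.28 and 3.59 cRPKM at P10). The missing call therefore cannot decide whether Khdrbs1 changed between the ages. Khdrbs2 had 5.5, 5.23 and 3.52 cRPKM at P30, against 6.46 and 10 cRPKM at P10 (log2 change -0.67, adjusted p = 0.135) and was not called. Khdrbs3, of the same family, had 3.67, 4.26 and 5.19 cRPKM at P30, against 13.8 and 8.69 cRPKM at P10 (log2 change -1.17, SE 0.25, adjusted p = 0.0076), and was not called without P10 library 5 (adjusted p = 0.0852). The neuronal marker Rbfox3 was not called (log2 change 0.27, adjusted p = 0.436).

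Of 33 chromatin and DNA methylation genes 2 rose and 11 fell (median -0.59). Ezh2, the methyltransferase of Polycomb repressive complexes in proliferating cells, had 2.77, 5.73 and 5.06 cRPKM at P30, against 23.9 and 29.6 cRPKM at P10 (log2 change -2.36, SE 0.36, adjusted p = 0.000874). Ezh1, its counterpart in resting cells, had 23.2, 18.2 and 22.6 cRPKM at P30, against 6.81 and 8.21 cRPKM at P10 (log2 change 1.39, adjusted p = 0.0224). The histone deacetylase gene Hdac11 rose too (1.08 on the log2 scale). Ezh1 was not called without P30 library 1, P30 library 3, P10 library 5 or P10 library 6 (adjusted p = 0.0749 to 0.138). Hdac11 was not called without any 1 of the 5 libraries (adjusted p = 0.0594 to 0.304). Uhrf1, which guides maintenance DNA methylation (log2 change -4.06, adjusted p = 1.81e-05), and the chromatin proteins Hmgb2 (log2 change -4.13, adjusted p = 2.11e-06) and Hmgn2 (log2 change -2.68, adjusted p = 1.89e-05) fell. Of the BAF complex subunits that are exchanged when precursors become neurons, Actl6a had 6.24, 8.71 and 10.8 cRPKM at P30, against 27.9 and 34.1 cRPKM at P10 (log2 change -1.76, adjusted p = 0.00658), and was not called without P10 library 6 (adjusted p = 0.0686). The neuronal Actl6b was not called (log2 change -0.33, adjusted p = 0.566). Dnmt3a, a DNA methyltransferase of neurons, was not called (log2 change -0.22, adjusted p = 0.588).

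Of 21 genes of cholesterol synthesis 0 rose and 8 fell (median -0.82). Cyp51, the sterol demethylase, had 16.8, 23.3 and 18.5 cRPKM at P30, against 60 and 52.8 cRPKM at P10 (log2 change -1.49, adjusted p = 0.000116). Mvd, a decarboxylase of the mevalonate pathway, had 12.6, 19 and 16.1 cRPKM at P30, against 72.5 and 46.2 cRPKM at P10 (log2 change -1.82, adjusted p = 0.000149). Both were lower in every P30 library. In this list 3 to 8 genes fell with 1 library left out, the fewest without P10 library 6. Of 39 genes of oxidative phosphorylation 1 rose, Sdha, a subunit of succinate dehydrogenase (log2 change 0.62, adjusted p = 0.00332), and the median was 0.12. Of 16 imprinted genes 4 fell. Nnat, the proteolipid neuronatin, had 40.6, 31.9 and 26.9 cRPKM at P30, against 199 and 209 cRPKM at P10 (log2 change -2.60, adjusted p = 1.04e-05). Mest (log2 change -1.40, adjusted p = 0.00819), the cell cycle inhibitor Cdkn1c (log2 change -1.49, adjusted p = 0.0105) and the zinc-finger gene Plagl1 (log2 change -1.92, adjusted p = 0.0169) fell too. Mest was not called without P10 library 6 (adjusted p = 0.0763), and Cdkn1c not without P10 library 5 (adjusted p = 0.1). Plagl1 was not called without P30 library 2, P10 library 5 or P10 library 6 (adjusted p = 0.0592 to 0.114). Igf2, an imprinted growth factor, was not called (log2 change -1.15, adjusted p = 0.0561).

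Some of the largest rises were in genes outside these lists. Gpd1, a glycerol phosphate dehydrogenase, had 129, 99 and 101 cRPKM at P30, against 8.03 and 6.7 cRPKM at P10 (log2 change 3.72, SE 0.38, adjusted p = 5.43e-05). Fam107a, an actin-associated protein, had 286, 275 and 295 cRPKM at P30, against 27.7 and 18.1 cRPKM at P10 (log2 change 3.61, SE 0.50, adjusted p = 0.000456). Pygm, a glycogen phosphorylase, had 18.3, 14 and 18.3 cRPKM at P30, against 0 and 1.33 cRPKM at P10 (log2 change 3.54, adjusted p = 0.000741). All 3 had every P30 library above every P10 library. Agxt2l1, a phospholyase of astrocytes, had 58.8, 18.7 and 37.8 cRPKM at P30 and was listed at 0 in both P10 libraries (adjusted p = 1.11e-05). Klk6, a protease of oligodendrocytes, had 12.5, 10.2 and 14.2 cRPKM at P30 and was likewise listed at 0 in both (adjusted p = 0.000171). Bcl6, a transcriptional repressor, had 36.9, 14.1 and 37.6 cRPKM at P30, against 1.62 and 1.41 cRPKM at P10 (log2 change 3.48, adjusted p = 0.000949). Crtam, an immunoglobulin-like surface protein, had 34.5, 25.3 and 34.9 cRPKM at P30, against 3.09 and 1.12 cRPKM at P10 (log2 change 3.45, adjusted p = 7.77e-05). The P30 libraries of both exceeded 14 cRPKM and the P10 libraries did not exceed 4 cRPKM. Ifit3, an interferon-induced protein, had 42.3, 18.2 and 21.3 cRPKM at P30, against 0 and 2.65 cRPKM at P10 (log2 change 3.79, adjusted p = 0.00438), and was not called without P10 library 5 (adjusted p = 0.07). In all, 32 genes that rose were listed at 0 in both P10 libraries and 82 in the shallow P10 library 5, and 16 that fell were listed at 0 in all 3 P30 libraries. The size of those changes is not defined by these values.

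Splicing was tested for 36347 events as the log2 odds of inclusion, and an event was called at an adjusted p below 0.05 in limma and a difference of at least 10 points of PSI. In all, 1209 events (3.33%) in 859 genes were called, 831 (2.29%) with higher and 378 (1.04%) with lower inclusion at P30. Of these, 1205 had no overlap between the ages, and the share without overlap over all events tested was not counted. Of 527 microexons, exons of at most 27 nt, 100 were called (19%), 87 of them higher and 13 lower, with a median difference over all microexons tested of 6.58 points. Of 9454 longer exons 667 were called (7.06%), 466 higher and 201 lower, with a median of 1.53 points. The mean inclusion of 514 microexons with values in every library was 56.4%, 57.1% and 55.9% at P30, against 48.6% and 46.4% at P10. Longer exons averaged 62.9%, 63.0% and 62.8% at P30 and 62.0% and 59.4% at P10, so the ages were farther apart in microexons. Exons of 28 nt or more with a length divisible by 3, which keep the reading frame, were called in 10.4% of 4156 cases, and the others in 4.42% of 5298. Among microexons the shares were 21.4% of 439 and 6.82% of 88. Leaving out 1 library left 50 to 88 microexon calls, of which 41 to 76 were higher, and 230 to 529 calls of longer exons, in both cases fewest without P10 library 6.

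**Figure D3:**
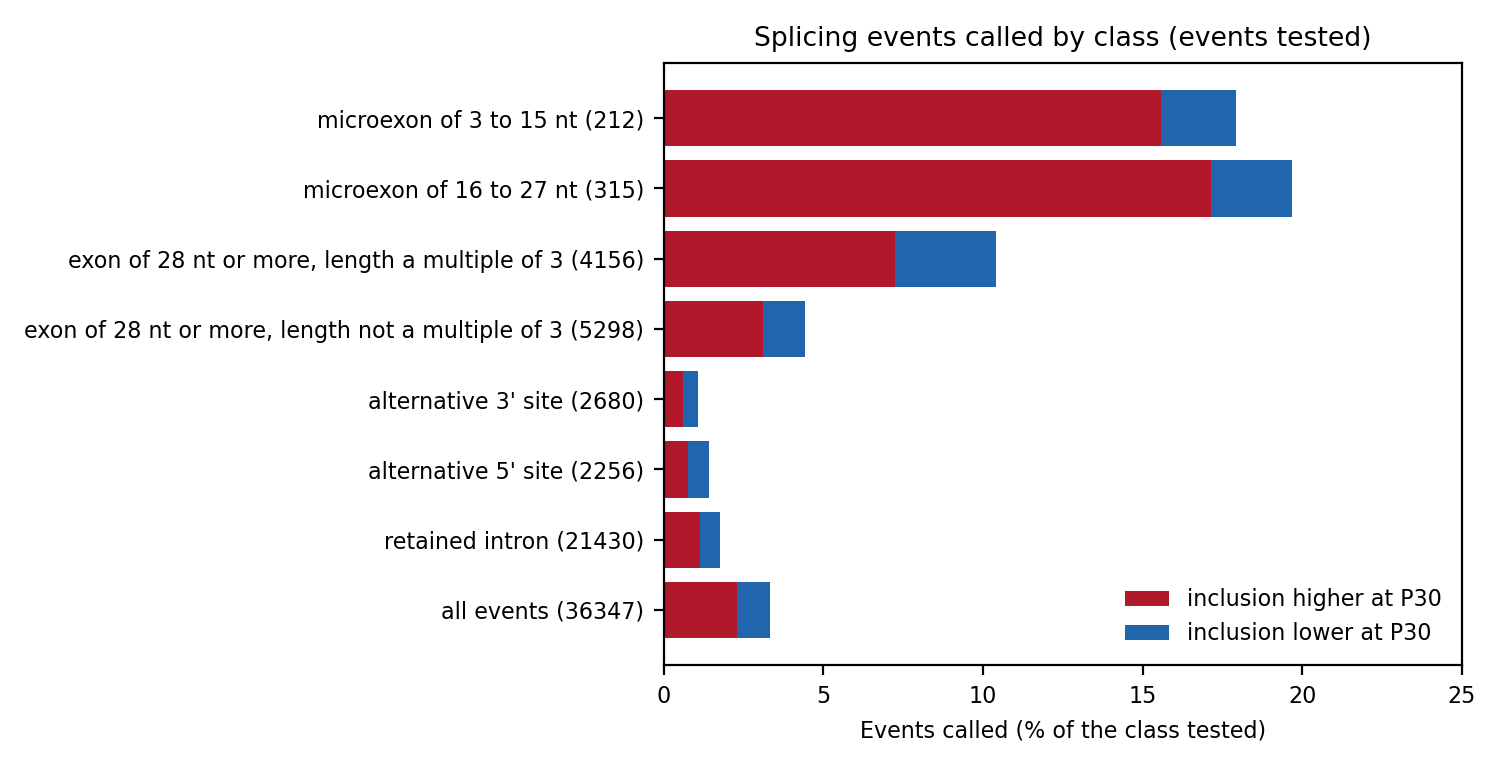
Share of the splicing events of each class that were called, in percent of events tested, split into inclusion higher at P30 and lower at P30, with the number tested in brackets. Microexons of both length ranges stand at 17.9% and 19.7%, against 3.33% of all events and 1.78% of retained introns.

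The exons below were among the largest or most significant differences, and their sequences are printed to show the short coding segments concerned. All were taken from GENCODE transcripts of the GRCm38 build by exon and intron lengths, while coordinates are those of the deposited table on mm9. The exon is in capitals and the last and first 15 bases of its neighbouring exons are in lower case.
Grin1, 63 nt: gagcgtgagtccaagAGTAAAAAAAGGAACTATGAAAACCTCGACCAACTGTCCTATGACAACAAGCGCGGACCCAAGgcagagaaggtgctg
Cacna1a, 36 nt: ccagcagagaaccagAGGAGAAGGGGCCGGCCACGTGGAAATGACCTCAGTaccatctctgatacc
Cadps, 21 nt: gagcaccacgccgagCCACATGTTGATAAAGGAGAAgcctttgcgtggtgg
Celsr3, 15 nt: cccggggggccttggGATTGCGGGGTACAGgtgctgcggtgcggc
Dst, 18 nt: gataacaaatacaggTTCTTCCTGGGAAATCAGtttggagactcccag
Clasp2, 27 nt: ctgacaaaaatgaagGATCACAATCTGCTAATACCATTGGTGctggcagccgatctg
Kcnma1, 12 nt: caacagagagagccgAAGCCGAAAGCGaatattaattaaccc
Each of these 7 exons lies within coding sequence and has a length divisible by 3, which is not so for all called exons, as the shares above show. The first 5 were included more at P30 and the last 2, Clasp2 and Kcnma1, less.

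Inclusion of a 93 nt exon of Mapt, the gene of the microtubule-binding protein tau, was 98.5%, 98.6% and 99.1% at P30, against 43.6% and 30.7% at P10 (difference 61.6 points, log2 odds difference 7.03, SE 0.35, adjusted p = 3.58e-07). It was thus nearly constitutive at P30. Other cytoskeletal genes had called exons too. The Dst microexon (chr1:34353587-34353604), in the gene of the linker protein dystonin, had 99%, 100% and 99.1% at P30, against 64.5% and 54.4% at P10 (difference 39.9 points, log2 odds difference 6.19, SE 0.51, adjusted p = 1.86e-05). The Clasp2 microexon (chr9:113774204-113774230), in a protein that tracks microtubule plus ends, had 3.9%, 2.6% and 2.5% at P30, against 30.4% and 30.1% at P10 (difference -27.2 points, log2 odds difference -3.77, SE 0.40, adjusted p = 0.000125). Of 3 called exons of Clasp2, 1 was more and 2 were less included. A 12 nt microexon of Macf1, a relative of Dst (chr4:123046064-123046075), had 62.8%, 58.6% and 61.1% at P30, against 22.9% and 24.8% at P10 (37.0 points, adjusted p = 0.000363). In Ank2, an ankyrin that anchors membrane proteins to spectrin, an exon of 183 nt had 49.6%, 44.4% and 46% at P30, against 21.3% and 21.6% at P10 (25.2 points, adjusted p = 8.2e-05). In its relative Ank3 an exon of 33 nt had 7.3%, 12.1% and 13.6% at P30, against 36.9% and 49.1% at P10 (-32.0 points, adjusted p = 0.00202). Neither gene moved in 1 direction, since Ank2 had 1 called exon that was more and 2 that were less included, and Ank3 had 3 more and 1 less included. A 3 nt microexon of Dctn2, a dynactin subunit, had 93.9%, 92.4% and 92.4% at P30, against 74% and 64.9% at P10 (23.5 points, adjusted p = 3.61e-05). An exon of 34 nt of Add1, the actin-capping protein adducin, had 28%, 28.9% and 30.1% at P30, against 53.2% and 57.2% at P10 (-26.2 points, adjusted p = 0.000817). The related genes Epb4.1l1 and Epb4.1l2 encode proteins that link spectrin to membranes, and their exons differed in opposite directions. Epb4.1l1 had an exon of 111 nt with 19.1%, 15.3% and 20.2% at P30, against 1.3% and 1% at P10 (17.1 points, adjusted p = 4.09e-05). Epb4.1l2 had an exon of 168 nt with 3.4%, 2.5% and 3.3% at P30, against 19.7% and 17.9% at P10 (-15.7 points, adjusted p = 7.82e-05).

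Among receptor genes, Grin1 held exons that changed in opposite directions. The 63 nt exon of Grin1 (chr2:25166863-25166925), the N1 cassette in the extracellular part of the obligatory NMDA receptor subunit, had 60.4%, 59.6% and 59.9% at P30, against 14.8% and 14% at P10 (difference 45.6 points, log2 odds difference 3.15, SE 0.23, adjusted p = 5.77e-06). The 111 nt exon of the same gene (chr2:25149958-25150068), the C1 cassette of its intracellular tail, had 24.6%, 29.3% and 27% at P30, against 67% and 58.4% at P10 (difference -35.7 points, log2 odds difference -2.19, SE 0.31, adjusted p = 0.00104). In each the libraries of an age lay within 10 points of one another and far from those of the other age. Gria2, an AMPA receptor subunit, had an exon of 115 nt with 69.4%, 72% and 66.7% at P30, against 83% and 87.7% at P10 (-16.0 points, adjusted p = 0.0451). The Gria2 exon was not called without any 1 of the 5 libraries (adjusted p = 0.0708 to 0.39). An exon of 75 nt of Camk2b, a subunit of a calcium-dependent kinase of synapses, had 97.4%, 97.1% and 97.2% at P30, against 75% and 71.2% at P10 (24.1 points, adjusted p = 5.77e-06). The gene had 2 called exons, both more included at P30, and a called 3′ splice site that was less used. An exon of 60 nt of Camk2d, another subunit, had 88.2%, 89.8% and 87.6% at P30, against 55.8% and 38.8% at P10 (41.2 points, adjusted p = 0.000244). The exon of 63 nt tested in Camk2g was not called, with 29.1%, 31.8% and 28.5% at P30, against 18.6% and 10% at P10 (15.5 points, adjusted p = 0.0745). An exon of 30 nt of Ppp3ca, the catalytic subunit of calcineurin, had 85.1%, 82.5% and 82.3% at P30, against 53.2% and 50.5% at P10 (31.5 points, adjusted p = 1.86e-05).

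Of 22 sodium and calcium channel genes with a tested event 11 had a call, and of 24 potassium channel genes 8 did. In all, 859 of 9475 genes (9.07%) had a call. A gene with more tested events has more chances of a call. By event, 23 of 136 and 10 of 61 were called in these lists, against 3.33% of all events, and the differences were not tested. The 36 nt exon of Cacna1a (chr8:87159448-87159483), the pore subunit of the P/Q-type calcium channel of Purkinje and granule cells, had 95.8%, 94.6% and 95% at P30, against 56.5% and 56.5% at P10 (difference 38.6 points, log2 odds difference 3.90, SE 0.28, adjusted p = 5.77e-06). An exon of 97 nt of the same gene, which in its channel is used in exclusion of a neighbour of the same length, had 8%, 9.5% and 10.4% at P30, against 41.5% and 50.4% at P10 (-36.7 points, adjusted p = 8.01e-05). Of the 4 exons of the gene that were called, 3 were more and 1 was less included at P30. An exon of 60 nt of Cacna1d, an L-type channel, had 68%, 61.4% and 68.2% at P30, against 11.4% and 13.6% at P10 (difference 53.4 points, log2 odds difference 3.72, SE 0.60, adjusted p = 0.0029). An exon of 54 nt of Cacna1g, a T-type channel, had 1.6%, 3.2% and 2.4% at P30, against 30.6% and 31.3% at P10 (difference -28.5 points, log2 odds difference -4.17, SE 0.35, adjusted p = 1.86e-05). The 12 nt exon of Kcnma1 (chr14:24268422-24268433), the large-conductance calcium-activated channel, had 1.2%, 2.6% and 2.1% at P30, against 22.2% and 23.8% at P10 (difference -21.0 points, log2 odds difference -3.86, SE 0.40, adjusted p = 0.000106). Both of these exons were near 0 at P30, though Kcnma1 also had a called exon of 29 nt that was more included. An exon of 123 nt of Scn8a, in the sodium channel whose level was not called above, had 93.2%, 97% and 96.6% at P30, against 67.2% and 50.9% at P10 (36.6 points, adjusted p = 0.000459). An exon of 45 nt of Itpr1, the calcium release channel of Purkinje cells, which encodes the SI segment of its ligand-binding part, had 19.1%, 16.8% and 20.3% at P30, against 55% and 63% at P10 (-40.3 points, adjusted p = 8.18e-05). All 7 exons kept their call with any 1 of the 5 libraries left out.

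**Figure D4:**
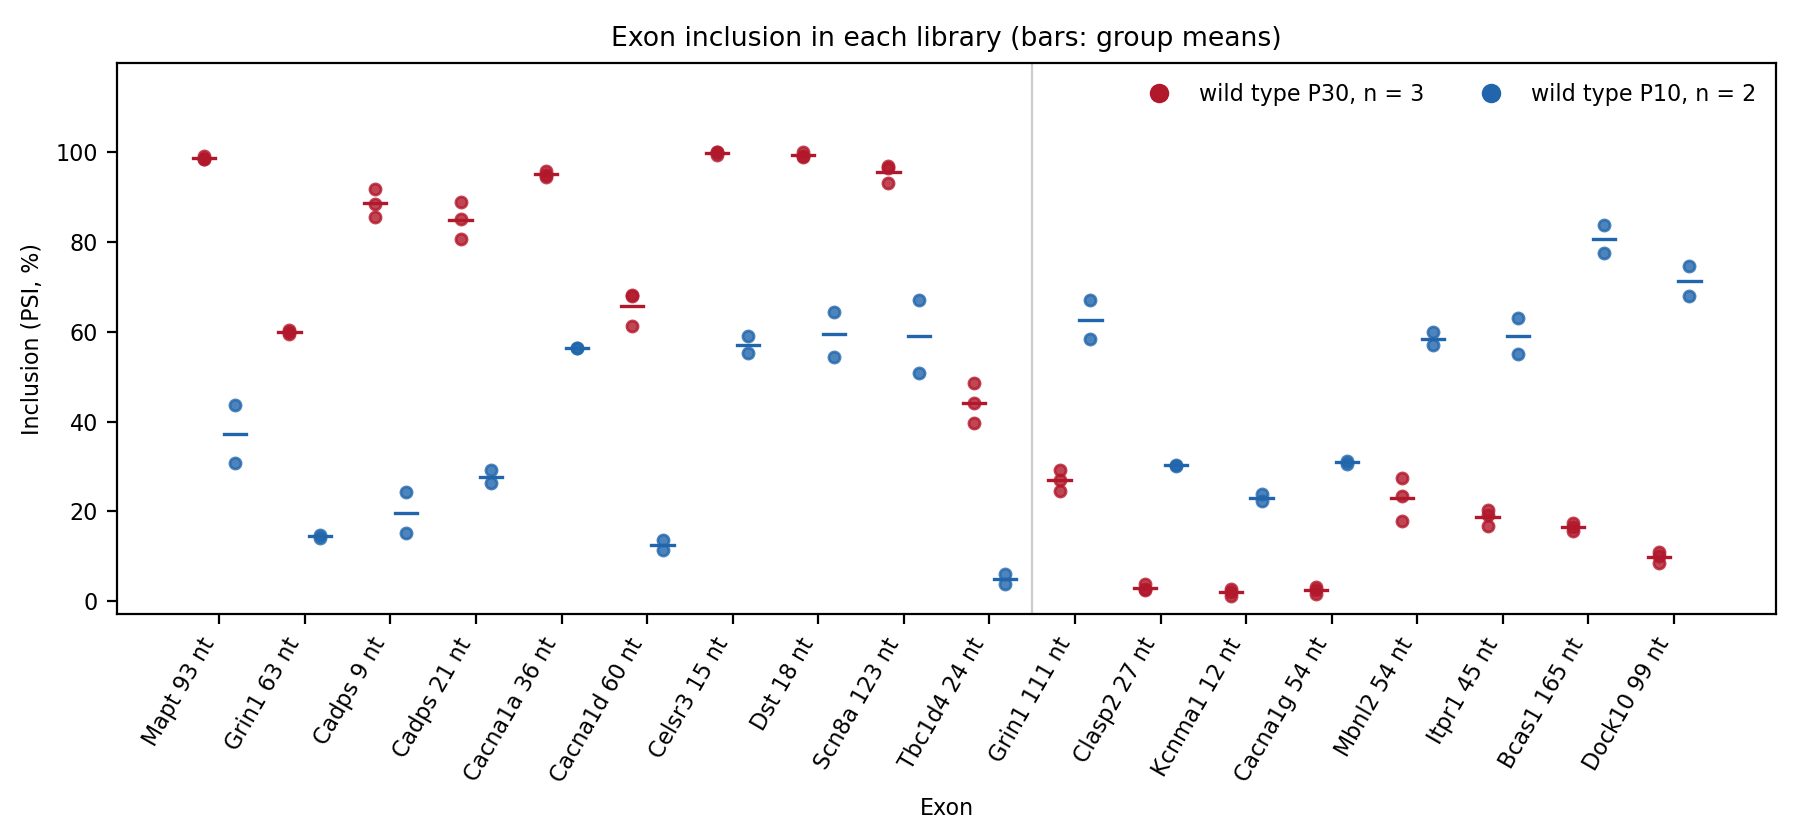
Inclusion (PSI, percent) of 18 exons in each library, wild-type P30 (n = 3) left of wild-type P10 (n = 2), with points for libraries and bars for group means. The 10 exons left of the line were included more at P30 and the 8 right of it less, and in none do the libraries of the ages overlap.

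Called exons of exocytosis and synapse genes included 4 microexons of Cadps, the priming factor of dense-core vesicles. Its 9 nt exon had 85.7%, 91.8% and 88.5% at P30, against 24.2% and 15.2% at P10 (difference 69.0 points, log2 odds difference 5.02, SE 0.40, adjusted p = 1.42e-05). Its 21 nt exon had 88.9%, 80.6% and 85.1% at P30, against 29.2% and 26.3% at P10 (difference 57.1 points, log2 odds difference 3.89, SE 0.33, adjusted p = 1.86e-05). The exon of 12 nt had 73.2%, 70% and 75.9% at P30 and 39.2% and 35.7% at P10, and that of 18 nt 93.2%, 94.8% and 95.2% at P30 and 72.1% and 70.9% at P10 (35.6 and 22.9 points, adjusted p = 0.000213 and adjusted p = 0.000125). All 4 were higher in every P30 library. In its relative Cadps2, a granule cell gene, an exon of 120 nt had 80.7%, 81.5% and 74.2% at P30, against 44.9% and 39.2% at P10 (36.8 points, adjusted p = 0.000285). An exon of 57 nt of Unc13a, a vesicle priming protein, had 37.8%, 38.5% and 38.4% at P30, against 7% and 5.8% at P10 (31.8 points, adjusted p = 8.01e-05). The neuronal inserts of the clathrin light chains rose. The 36 nt insert of Clta had 51.6%, 49.9% and 44.1% at P30, against 25.5% and 21.2% at P10 (25.2 points, adjusted p = 0.00118). The 54 nt insert of Cltb had 78.1%, 78% and 74% at P30, against 44.7% and 36.3% at P10 (36.2 points, adjusted p = 0.000213). An exon of 498 nt of Sgip1, an endocytic protein, had 90.2%, 89% and 89.9% at P30, against 48.1% and 36% at P10 (47.6 points, adjusted p = 5.73e-05). By contrast, an exon of 139 nt of Dnm1 was less included, with 56.1%, 59.1% and 60.2% at P30, against 74.7% and 76.8% at P10 (-17.3 points, adjusted p = 0.0116). The Dnm1 exon was not called without P10 library 5, P10 library 6 or P30 library 1 (adjusted p = 0.0528 to 0.132).

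Neurexins are presynaptic receptors for neuroligins, cerebellins and latrophilins. In Nrxn2 the 90 nt exon at splice site 4 had 91.5%, 93.8% and 91.7% at P30, against 79.9% and 75.8% at P10 (14.5 points, adjusted p = 0.000621), and this call did not depend on any 1 library. A 12 nt microexon of Nrxn3 had 74.4%, 70.2% and 76.6% at P30, against 32.1% and 20.6% at P10 (47.4 points, adjusted p = 0.00665). It was not called without P10 library 6 (adjusted p = 0.119). The 15 nt exon of Celsr3 (chr9:108741091-108741105), an adhesion receptor of the cadherin family that guides axons, had 100%, 99.4% and 100% at P30, against 59% and 55.3% at P10 (difference 42.6 points, log2 odds difference 6.50, SE 0.55, adjusted p = 1.86e-05), so it was close to constitutive at P30. A 15 nt exon of Lphn1, a latrophilin, had 80.7%, 79.1% and 79.5% at P30, against 50.4% and 48.4% at P10 (30.3 points, adjusted p = 0.000272). An exon of 30 nt of Ncam1, the neural cell adhesion molecule, had 65.3%, 61.7% and 60.7% at P30, against 30.6% and 30.9% at P10 (31.8 points, adjusted p = 0.000752). An exon of 30 nt of Clstn1, a calsyntenin, had 62.3%, 57.6% and 56.6% at P30, against 28% and 27% at P10 (31.4 points, adjusted p = 0.000101). Some exons of adhesion genes had lower inclusion at P30. An exon of 30 nt of Nrcam had 52%, 57.9% and 50.9% at P30, against 73.3% and 70.7% at P10 (-18.4 points, adjusted p = 0.00348). An exon of 102 nt of the nectin-like Cadm3 had 8.2%, 8.6% and 8% at P30, against 37.9% and 40.9% at P10 (-31.1 points, adjusted p = 3.01e-06). An exon of 126 nt of Robo2 had 10.2%, 10.5% and 9.4% at P30, against 39.7% and 39.6% at P10 (-29.6 points, adjusted p = 8.9e-05). Nrcam and Robo2 each also had a called microexon of 12 nt that was more included, so these genes held changes in both directions. The scaffold Cask, which binds neurexins, had lower inclusion, with 24.9%, 26.3% and 23.1% at P30, against 59.6% and 56.2% at P10 for an exon of 69 nt (-33.2 points, adjusted p = 0.0003).

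Of 34 RNA-binding protein genes with a tested event 13 had a call, against 859 of 9475 genes in all (9.07%). By event, 18 of 161 were called, against 3.33% of all events, and these differences were not tested. The 54 nt exons of Mbnl1 and Mbnl2 carry part of the nuclear localization signal of the muscleblind proteins. That of Mbnl1 had 20.4%, 20.6% and 17.3% at P30, against 49.5% and 59.5% at P10 (-35.1 points, adjusted p = 0.0161). That of Mbnl2 had 17.9%, 23.4% and 27.5% at P30, against 59.9% and 57% at P10 (-35.6 points, adjusted p = 0.00509). Both were less included in every P30 library. The Mbnl1 call ended without P10 library 5, P10 library 6 or P30 library 3 (adjusted p = 0.0559 to 0.196). The Mbnl2 call ended without P10 library 5 (adjusted p = 0.0557). An exon of 91 nt of Elavl2 had 65.4%, 68.2% and 63.1% at P30, against 17.6% and 23.1% at P10 (45.2 points, adjusted p = 0.000106). An exon of 56 nt of Ptbp1, whose gene fell, had 16.3%, 19.5% and 20.3% at P30, against 1.2% and 1.1% at P10 (17.5 points, adjusted p = 0.00441). Its call ended without P10 library 6 (adjusted p = 0.0572). An exon of 40 nt of Rbfox2 had 52.5%, 54.9% and 59.8% at P30, against 76.2% and 72.3% at P10 (-18.5 points, adjusted p = 0.0177), a call that ended without P10 library 5, P10 library 6 or P30 library 1 (adjusted p = 0.0666 to 0.15). Among chromatin genes, an exon of 82 nt of Ezh2 had 22.9%, 22.1% and 24.1% at P30, against 4.7% and 3.1% at P10 (19.2 points, adjusted p = 0.000125). The 102 nt exon of Ehmt2, which lengthens the histone methyltransferase G9a, had 88%, 88% and 87.3% at P30, against 74.1% and 65.1% at P10 (18.2 points, adjusted p = 0.0237). The Ehmt2 exon was not called without any 1 of the 5 libraries (adjusted p = 0.0528 to 0.277). An exon of 123 nt of Nfix, a transcription factor of maturing granule cells, had 52.9%, 51.5% and 56.9% at P30, against 89% and 86.4% at P10 (-33.9 points, adjusted p = 1.77e-05).

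Bcas1, a gene of newly formed oligodendrocytes and myelin, had 3 called exons. The exon of 165 nt had 16.5%, 15.7% and 17.3% at P30, against 83.9% and 77.5% at P10 (difference -64.2 points, log2 odds difference -4.41, SE 0.45, adjusted p = 0.0001). That of 42 nt had 26.4%, 27.8% and 30% at P30, against 91% and 85.3% at P10 (-60.1 points, adjusted p = 3.85e-05). The exon of 66 nt had 43.3%, 42.2% and 42.8% at P30, against 83.5% and 81.6% at P10 (-39.7 points, adjusted p = 0.00223). All 3 were included in a minority of transcripts at P30 and in most at P10. The 45 nt exon of Mag, whose inclusion gives the short form of the myelin-associated glycoprotein, had 51.8%, 46% and 46.3% at P30, against 9.3% and 16.3% at P10 (35.2 points, adjusted p = 0.00341). It was not called without P10 library 5 (adjusted p = 0.0588). In Nfasc, the neurofascin of nodes and paranodes, an exon of 153 nt had 50.3%, 49.2% and 48.9% at P30, against 25.8% and 16.2% at P10 (28.5 points, adjusted p = 0.00183). One of 51 nt had 15.1%, 12.6% and 16.6% at P30, against 38% and 42.9% at P10 (-25.7 points, adjusted p = 0.00279) and was not called without P10 library 6 (adjusted p = 0.0508). A pair of 273 nt exons of Tnc, each a fibronectin type III repeat, were close to absent at P30. The first had 1.6%, 0% and 0.4% at P30, against 11.7% and 13.6% at P10 (-12.0 points, adjusted p = 0.00182), and the other had 0.6%, 0% and 0.8% at P30, against 10.5% and 13.2% at P10 (-11.4 points, adjusted p = 0.000806). The P1 libraries had 72.1% and 80.1% and 68.9% and 77.6%. The 167 nt exon of Pkm2, of a pair of mutually exclusive exons of pyruvate kinase, had 96.1%, 95.2% and 95.5% at P30, against 85.3% and 76.2% at P10 (14.8 points, adjusted p = 0.000459).

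Further exons with large differences lay in genes of no list. An exon of 323 nt of Tnfaip8 had 93.4%, 91% and 92.6% at P30, against 13.7% and 11.7% at P10 (difference 79.6 points, log2 odds difference 6.30, SE 0.40, adjusted p = 3e-06). An exon of 99 nt of Dock10, an activator of Cdc42, had 10.1%, 11% and 8.5% at P30, against 68.1% and 74.7% at P10 (difference -61.6 points, log2 odds difference -4.47, SE 0.52, adjusted p = 0.000265). A microexon of 24 nt of Tbc1d4, a Rab regulator, had 44.2%, 48.5% and 39.6% at P30, against 6.1% and 3.7% at P10 (39.2 points, adjusted p = 0.000185). One of 18 nt of Plekha5 had 94.4%, 93.6% and 88% at P30, against 48.6% and 40.1% at P10 (47.7 points, adjusted p = 0.000125). Of alternative splice sites 29 of 2680 at 3′ ends (1.08%) and 32 of 2256 at 5′ ends (1.42%) were called. In Atp2b4, a plasma membrane calcium pump, a 5′ site had 0%, 0% and 0% at P30, against 38.6% and 46.5% at P10 (-42.6 points, adjusted p = 9.37e-05).

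Retained introns were called in 381 of 21430 cases (1.78%), 245 higher and 136 lower, with a median difference of -0.55 points. Their mean inclusion was 13.8%, 22.0% and 16.9% at P30 and 16.4% and 19.8% at P10, so P30 library 2 lay above the others and the ages overlapped. Leaving out that library left 140 higher and 169 lower, so the excess of higher introns depends on it. When values with unbalanced reads across the intron were dropped, 139 calls were left. Of the 12 largest rises of any kind, 7 were introns of Kif22, a mitotic kinesin. In this gene 11 of 13 introns tested were called, all higher, from 10 to 91 reads per intron and library at P30 and 22 to 471 at P10. Its intron of 1496 nt had 83.3%, 100% and 91.7% at P30, against 10.1% and 4.1% at P10 (84.6 points, adjusted p = 0.00059). An intron of 4383 nt of Frmpd3 had 88.7%, 93.1% and 93.2% at P30, against 9.9% and 8.7% at P10 (82.3 points, adjusted p = 1.42e-05). An intron of the cyclin gene Ccnd1 had 37.2%, 26.4% and 27.3% at P30, against 4.8% and 3.8% at P10 (26.0 points, adjusted p = 0.000172). Of 243 introns called higher in tested genes, the gene fell in 85 (35.0%) and rose in 11 (4.53%), whereas over all 21150 introns the gene fell in 7.42% and rose in 4.31%. Whether the scarcity of these transcripts plays a part was not tested. The median called intron that was higher had 52 reads per library at P30 and 102 at P10.

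Among introns called lower, Itsn1, the scaffold intersectin of endocytosis, had an intron of 4641 nt with 0.6%, 1.7% and 1.3% at P30, against 54.6% and 60.3% at P10 (difference -56.3 points, log2 odds difference -6.81, SE 0.37, adjusted p = 5.84e-07). At P1 the same intron had 5.1% and 5.4%, so its retention was high only at P10 among the 3 wild-type ages. An intron of 301 nt of Bsn, the active zone protein bassoon, had 0.7%, 1.1% and 0.2% at P30, against 19.2% and 23.3% at P10 (-20.6 points, adjusted p = 0.000185). An intron of Kcnc1, whose gene rose, had 11.6%, 25.1% and 16.7% at P30, against 42% and 49.8% at P10 (-28.1 points, adjusted p = 0.0421). It was not called without P10 library 5, P10 library 6, P30 library 1 or P30 library 3 (adjusted p = 0.122 to 0.315). Of 132 introns called lower in tested genes the gene rose in 24 (18.2%) and fell in 12 (9.09%).

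Calls in expression and in splicing were compared by gene. Of 9164 genes tested in both tables, 1297 (14.2%) were called in expression and 850 (9.28%) in splicing, and 227 had both, which is 17.5% of the genes called in expression and 26.7% of those called in splicing. Both shares were above those of all genes tested in both tables, and the difference was not tested. Of 100 called microexons the gene fell for 14 and rose for 10, against 13.3% and 7.71% of all microexons tested. Of 662 longer exons called in tested genes the gene fell for 108 (16.3%) and rose for 81 (12.2%), against 8.74% and 5.73% of all longer exons tested.

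The wild-type P1 libraries show how some of these exons stood at a younger age. Mapt went through 4.5% and 6.8% at P1, 43.6% and 30.7% at P10 and 98.5%, 98.6% and 99.1% at P30, and Camk2b through 11.3% and 19.6%, 75% and 71.2% and 97.4%, 97.1% and 97.2%. Both climbed over each interval. The Cacna1a exon of 36 nt followed the same order, with 10.4% and 13.2%, 56.5% and 56.5% and 95.8%, 94.6% and 95%. By contrast the Celsr3 exon had 64.5% and 50.7% at P1, 59% and 55.3% at P10 and 100%, 99.4% and 100% at P30, and the 165 nt exon of Bcas1 had 70.9% and 63.7%, 83.9% and 77.5% and 16.5%, 15.7% and 17.3%. The P1 and P10 libraries overlapped for the Celsr3 exon but not for the Bcas1 exon, which was higher in both P10 than in both P1 libraries. In both exons the P30 libraries lay far from those of the younger ages. The Clasp2 microexon had 75.4% and 63.3% at P1, 30.4% and 30.1% at P10 and 3.9%, 2.6% and 2.5% at P30, a decline over each interval. Other called exons were lowest at P10. A 27 nt microexon of Ank3 had 91.5% and 82.1% at P1, 52.5% and 55.8% at P10 and 79.7%, 81.2% and 77.4% at P30. The 63 nt exon of Clasp2 had 39.3% and 41.7%, 22.9% and 24.4% and 43.1%, 40.9% and 40.8%. Both were named after their values were seen. A rise from P10 to P30 is thus not always a steady climb, and the exons of each course were not counted.

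**Figure D5:**
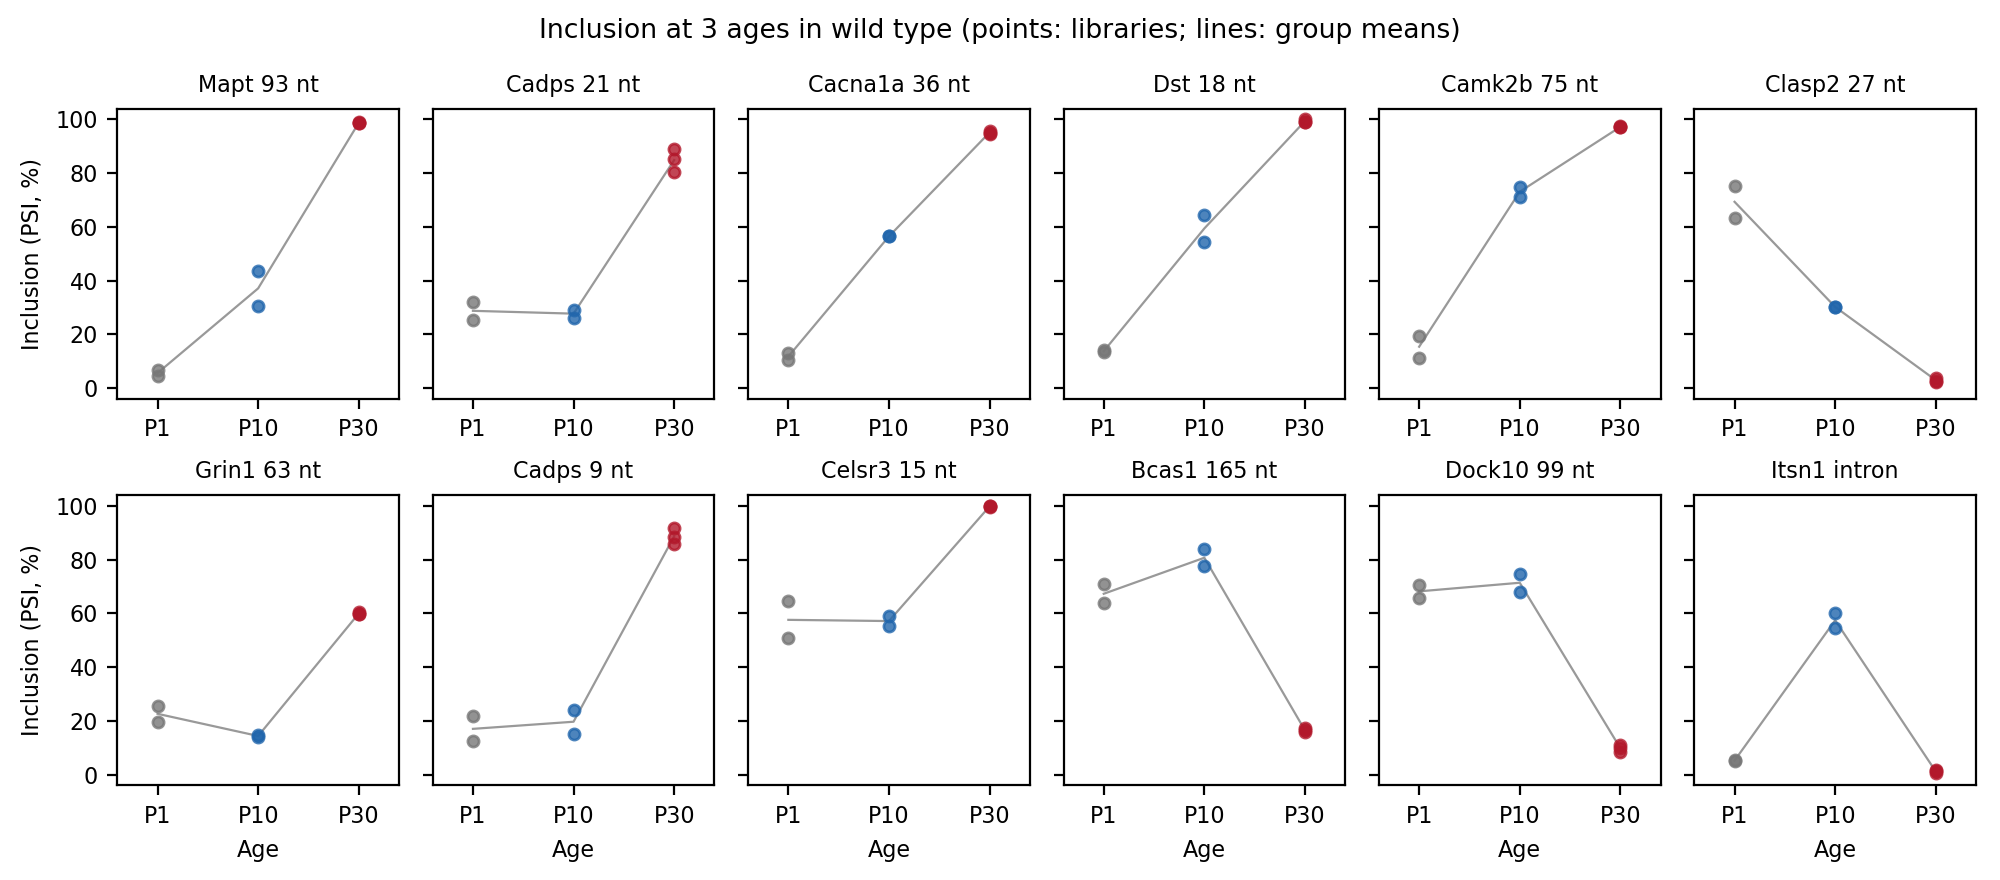
Inclusion (PSI, percent) of 11 exons and 1 intron in wild-type libraries at P1 (n = 2), P10 (n = 2) and P30 (n = 3), with points for libraries and lines through group means. Mapt, Cacna1a and Camk2b climb in each interval, Celsr3, Bcas1 and Dock10 differ mainly between P10 and P30, and the Itsn1 intron peaks at P10.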

How the data were processed

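Total RNA of cerebella was made into libraries with a modified Illumina stranded mRNA kit, per the labels' protocols. FastQC, Trimmomatic and the mm9 build are named in the submitters' processing notes. The aligner, counting program and their versions were not given in the sources used here. The authors deposited expression as cRPKM, an RPKM corrected for mappable length, and splicing as percent inclusion with the reads behind it.

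Genes whose mean reached 1 cRPKM in any group (pseudocount 1), and events covered by 10 or more reads in 2 or more libraries of each age whose mean PSI over the compared libraries was 5 to 95, were tested with limma 3.58.1 in R 4.3.3, in 1 fit of 5 groups (8 residual degrees of freedom) with an intensity trend. Log odds used 0.5 added reads. Adjustment was by the Benjamini-Hochberg method over all features. The fit was tested on simulated data with 100 features changed at each size. In expression it called 39% of 2-fold and 82% of 4-fold changes. In splicing it called 0% of differences of 15 points and 27% of those of 30 points. A gene or event that was not called may therefore still have changed. The 100 changed features of each size lay among 14063 genes or 34768 events. In the data 1209 events were called, 731 of them at a difference of at least 20 points, so smaller differences were called too. The simulated shares are thus not the shares of true changes called in the data. Of 22667 genes 1114 had no value, and 30610 of 283765 events, alternative sites with no added length, were left out. No 2 libraries were identical. Reads behind the expression table were estimated relative to P30 library 2 from the steps between values over 58 pairs of libraries, of which 100% were within 0.02 log2 units of 1 set of depths.

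The genes named are a list of developmental pairs, the 15 largest rises and falls and the 5 smallest p of each list. The events named are the 12 largest rises and falls, the event of smallest p of each gene of a splicing list, 12 microexons and 3 calls of each list. Some genes that this rule takes are left out of the text but stay in the counts. Some gene lists share members, so their counts are not separate. The further called events of Ank2, Ank3, Cacna1a, Camk2b, Clasp2, Kcnma1, Nrcam and Robo2 were counted after their values were seen. Members, lists and tests were chosen with earlier results of these data known. Aqp4, C1ql1, Cacna1b, Cacna2d1, Cbln1, Cntn2, Ebf1, Erc2, Gabrb2, Gfap, Gprin3, Hdac11, Hapln2, Kcnk9, Mmp15, Nrxn2, Rbfox1, Slco1a4, Slitrk1, Slitrk4, Syn3 and Ttr were named, to complete counts or as a marker, after their values were seen. Exon sequences were matched to GENCODE transcripts by the lengths of the exon and its neighbouring introns, without converting coordinates. Alternatives were other pseudocounts, filters, scalings, fits and read minimums, each library left out in turn, levels from junction reads and the knockout at P10 in place of wild type.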

Additional observations from a re-analysis of the deposited data

How the results depend on the processing

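The 2074 expression calls numbered 1199 (without P10 library 6) to 1439 with 1 library left out. They numbered 3864 when only the 5 compared libraries were fitted and 4554 when levels were taken from junction reads, and 1941 to 2121 under other pseudocounts or filters apart from 2138 with a pseudocount of 5. Rescaling gave 2006 calls and robust estimation 2091. Of the main calls, 2066 were shared with the fit of 5 libraries, and 1439 of 1446 genes had the same direction in junction reads. The 1209 splicing calls numbered 432 (without P10 library 6) to 977 with 1 library left out, 433 with no filter on mean PSI (145850 events tested), 731 at a difference of at least 20 points and 2432 against the knockout at P10. Fits of the 5 libraries alone gave 844. Genes with both calls, 227, numbered 349 with the fit of 5 libraries, 449 with junction reads, 349 with splicing against the knockout at P10, 139 at 20 points, 92 with no filter on mean PSI and 95 to 189 with 1 library left out. For what was not shown by the number of samples or events in a fit, the cause was not tested.

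A pseudocount of 0.1 ended the calls of Atp2a3, Bcl6, Gabrd, Grin2b, Grin2c, Hapln2, Hapln4, Hdac11, Ly6a, Mal, Mobp, Nab2, Pvalb, Scn4b, Slc17a7, Slco1a4, Slitrk1 and Slitrk4 (adjusted p = 0.0556 to 0.305). Rescaling ended those of Aqp4, Cacna1b, Cacna2d1, Cntn2, Ebf1, Kcnk9 and Ptbp2, and testing PSI points ended those of the Ehmt2 exon, the pair of Tnc exons and the Bsn intron. With no filter on low values the calls of Cacna2d1, Grin2c, Hdac11, Jun, Ptbp2 and Slitrk1 ended (adjusted p = 0.0504 to 0.0647). With no filter on mean PSI those of exons of Add1, Ank2, Clstn1, Clta, Dnm1, Ehmt2, Gria2, Mbnl1, Mbnl2, Ncam1, Nrcam, Nrxn2 and Rbfox2, of the 111 nt exon of Grin1, of both Nfasc exons and of the Kcnc1 intron ended (adjusted p = 0.0513 to 0.294). Against the knockout at P10 the calls of Bdnf (0.99), Cacna1b (-0.38), Cntn2 (-0.43), Ets1 (-0.94), Gprin3 (-0.84), Grin2b (-0.92), Plagl1 (-0.95), Ptbp2 (-0.47), Slitrk5 (-0.59) and Trf (1.99) ended, with log2 changes in brackets (adjusted p = 0.0675 to 0.316). Junction reads ended those of Slc1a2 and Slitrk4. Genes that were not called and changed sign were Dnmt3a (0.12), Ttr (-2.01) and Khdrbs1 (3.39), the deleted gene, against the knockout at P10. Leaving out 1 library gave Rbfox3 values of -0.04 to 0.58, Syt4 values of -0.02 to 0.39 and Ttr values of -1.36 to 5.95.

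A pair of alternatives was chosen after seeing the data. Without knockout P1 library 15 in the fit there were 2921 expression calls, and with balanced reads alone 743 splicing calls. No paired analysis was possible because no label links a P30 library to a P10 library. P10 library 5 had 8.7% of the reads of P30 library 2 behind its cRPKM values. It listed 361 of 9050 genes averaging 50 junction reads or more at 0. Whether depth accounts for these zeros was not tested.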
